A study of Sus scrofa with 21 samples.

Results

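Solute carriers (SLC) are the largest group of membrane transport proteins, and 70 SLC genes were measured above background in pig myocardium after myocardial infarction (MI). A gene was a member when a probe set that the platform annotation assigns to its symbol alone was above 3 on the log2 scale in at least 10 of 21 arrays, and a gene with several such probe sets was represented by the one of highest average signal. Of 120 SLC genes with such a probe set 70 passed and 50 did not, out of 4977 named genes that passed in all. The members fell into 29 families, with 17 genes in SLC25 and 53 in the other families. Of the 53, SLC2A4RG (a DNA-binding regulator), SLC9A3R1 and SLC9A3R2 (scaffold proteins) are named after a carrier without being carriers. Values were above 3 in all 21 arrays for 55 members. At the edge of the rule, SLC27A6 and SLC29A1 were above 3 in exactly 10 arrays and SLC2A12 in 11. SLC25A46, SLC2A12 and SLC29A1 were above 3 in 12, 11 and 10 of the arrays outside the infarct core and in 0 within it, so they became members through the groups in which they were high, and a lower level in the infarct core came with the way they were chosen. The same holds for SLC8A1 and SLC45A2, above 3 in 12 of the arrays outside the infarct core and in 2 and 1 within it.

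The SLC25 family carries nucleotides, phosphate, carnitine esters and organic acids across the inner membrane of mitochondria, and heart muscle, which takes most of its ATP from oxidative phosphorylation, is rich in it. ADP/ATP translocases and the phosphate carrier feed ATP synthase, the aspartate/glutamate and oxoglutarate/malate carriers form the malate-aspartate shuttle, and the carnitine/acylcarnitine carrier brings in fatty acids. Most other families act at the plasma membrane or in the secretory pathway and lysosomes, where they move glucose, amino acids, ions, metals, vitamins and nucleotide sugars.

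The 9 infarcted animals were female Landrace x Large White pigs of 30 to 40 kg. After surgically induced MI, 1 sample of each was taken from the left ventricular scar, called infarct core (IC), and 1 from the septum, called remote myocardium (RM). The 1-week group (6 days) held pigs 7, 8 and 9, the 4-week group (30 days) pigs 18, 20 and 22, and the 6-week group (45 days) pigs 2, 3 and 5. Control myocardium (CM) came from pigs 30, 31 and 33, which the labels call sham-operated and the study's text calls healthy. The labels put these controls at 0 days, so no infarcted group had a control of its own day. Each of the 7 groups held 3 arrays, and values below follow the order of the pig numbers just given. Expression is RMA signal on the log2 scale, differences are log2 fold changes (log2 FC) ± SE from limma, and a gene was called at an adjusted P value under 0.05.

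Samples were whole tissue, so fewer cells of a type and less RNA per cell cannot be told apart. In IC against CM at 1, 4 and 6 weeks, 7 of 8 fibroblast markers and 5 of 5 macrophage markers were upregulated at each stage. Of 10 cardiomyocyte markers 5, 7 and 2 were downregulated. Over all probe sets 26%, 25.3% and 21% were upregulated and 28.2%, 29.1% and 26% downregulated. The cardiomyocyte count at 6 weeks was thus not above that share. The mean level of the cardiomyocyte list was 11.59 to 11.74 in CM, 11.73 to 11.79 in RM and 10.34 to 11.54 in IC, lowest in pig 22 at 4 weeks. The fibroblast list was at 6.29 to 7.33 in CM, 6.58 to 7.23 in RM and 9.08 to 9.58 in IC, the macrophage list at 3.97 to 4.56, 4.23 to 5.03 and 6.26 to 8.00, and the smooth muscle list, of which 3 of 4 markers were upregulated in IC at each stage, at 6.21 to 6.84, 6.73 to 7.35 and 8.22 to 9.22. The endothelial list was at 6.06 to 6.47 in CM, and it was lower than that in all RM arrays of 1 week (5.23 to 6.00) and 6 weeks (5.65 to 5.88), at 5.70 to 6.21 in RM at 4 weeks and at 5.57 to 6.77 in IC. No measured marker in these lists was at 0, and the part of cell composition in the results on IC and RM was not tested. Of 40 control probe sets of the array's maker, 5 were called lower in IC at 1 week, 19 higher at 4 weeks, and 12 higher and 1 lower at 6 weeks, and their part was not tested either.

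In the infarct core 12 of the 17 SLC25 genes were called against CM at 1 and at 4 weeks and 10 at 6 weeks, and the losses outnumbered the gains. Downregulated at every stage were the same 8 genes, namely SLC25A3, SLC25A4, SLC25A11, SLC25A12, SLC25A20, SLC25A30, SLC25A33 and SLC25A46, the last of which passed the filter through CM and RM alone. Upregulated were SLC25A5, SLC25A6, SLC25A17 and SLC25A24 at 1 and 4 weeks, and SLC25A17 and SLC25A24 at 6 weeks. The called share of SLC25 was 70.6%, 70.6% and 58.8%, beside 54.2%, 54.4% and 47% of the 12180 probe sets tested. For downregulation it was 47.1% at each stage, beside 28.2%, 29.1% and 26% of all probe sets, and for upregulation 23.5%, 23.5% and 11.8%, beside 26%, 25.3% and 21%. All 6 comparisons with CM used the same 3 control arrays. Among the other families 28, 29 and 22 of 53 genes were called (52.8%, 54.7% and 41.5%), with 15 up and 13 down at 1 week, 13 and 16 at 4 weeks, and 11 and 11 at 6 weeks.

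The medians of the log2 FC were -0.30, -0.30 and -0.35 over SLC25, -0.14, -0.10 and -0.05 over the other families, and -0.06, -0.06 and -0.08 over all probe sets. The medians over the other families moved with the filter and the scaling. They were 0.61, 0.15 and 0.17 over the 27 genes above 5 in at least 3 arrays. With arrays centred on ribosomal protein genes they were -0.33, -0.28 and -0.22. The 3 arrays of 1 group suffice for the filter at 5. SLC9A3R1, SLC30A5, SLC35B3, SLC35F6, SLC38A9 and SLC50A1 were above 5 in IC arrays only, so a higher level in IC came with the way they entered it. SLC25 was far from uniform, since its interquartile range ran from -1.40 to 0.50 at 1 week. Of 64 genes of oxidative phosphorylation, the subunits of the respiratory chain and ATP synthase with 4 assembly factors among them, 61, 63 and 62 were downregulated and 1 upregulated at each stage, with medians of -1.10, -1.44 and -0.88. Taken array by array against each gene's CM mean, the SLC25 median lay between -0.09 and 0.10 in CM, between -0.14 and 0.13 in RM and between -0.67 and -0.16 in IC. The median over the other families lay between 0.00 and 0.01 in CM, between -0.02 and 0.18 in RM and between -0.13 and -0.02 in IC. The IC arrays thus stood below every RM and CM array in the SLC25 median, narrowly so (highest IC array -0.155, lowest RM array -0.137). For the other families the IC arrays also stood below every CM array, but so did the median over all probe sets. That median lay between -0.111 and -0.028 in IC, -0.050 and 0.054 in RM and -0.013 and 0.015 in CM. CM arrays are held near 0 here, since each gene's CM mean was subtracted. For the other families the IC and RM ranges met, as the highest IC array (-0.016) passed the lowest RM array (-0.018).

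**Figure D1:**
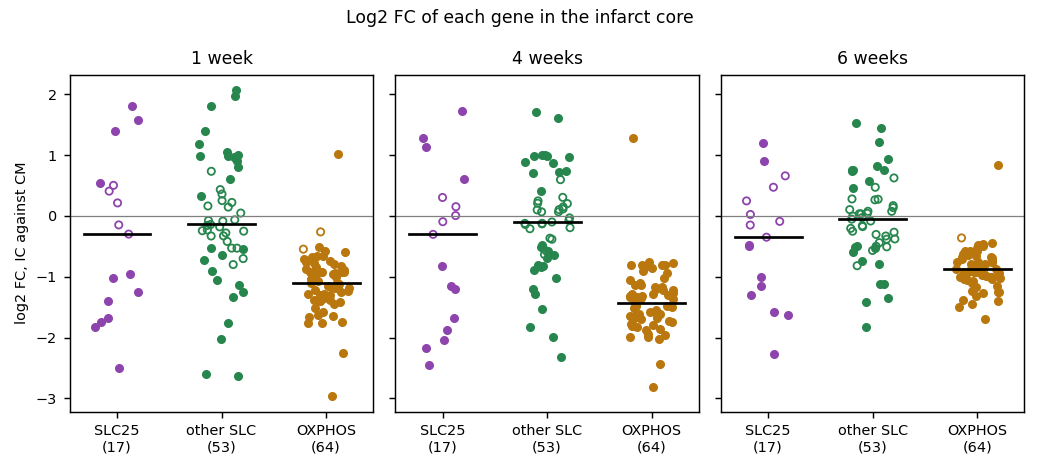
Log2 FC of IC against CM (y axis) for each SLC25 gene, each other SLC gene and each oxidative phosphorylation (OXPHOS) gene at 1, 4 and 6 weeks. A point is a gene, filled when called at an adjusted P value under 0.05, and bars mark medians. SLC25 genes lie on both sides of 0 at each stage, while all but 1 of the called OXPHOS genes lie below it.

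**Figure D2:**
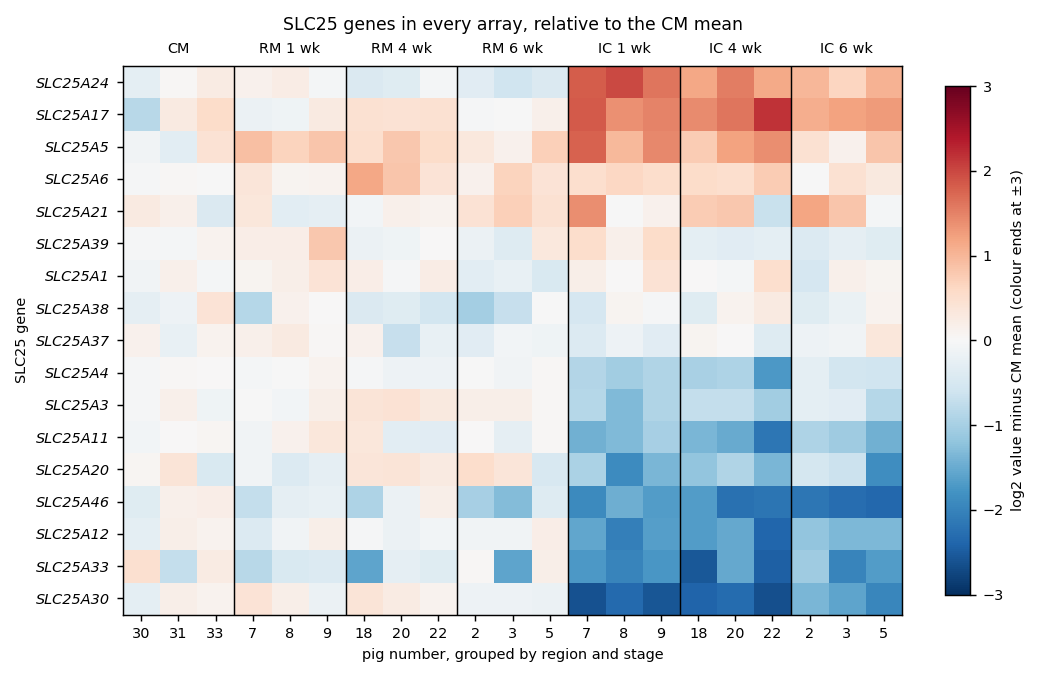
The 17 SLC25 genes (rows) in the 21 arrays (columns, by group and pig number), coloured by log2 value minus the gene's CM mean, with the colour scale ending at ±3. The lower 8 rows are blue in all 9 IC arrays and the upper rows SLC25A24 and SLC25A17 are red in all 9, while the RM columns are mostly pale.

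The 3 measured ADP/ATP translocases, which exchange mitochondrial ATP for cytosolic ADP, went in different directions. SLC25A4, the form that predominates in heart and skeletal muscle, was at 11.69, 11.76 and 11.75 in CM. It was between 11.57 and 11.84 in the 9 RM arrays, and in IC at 10.84, 10.68 and 10.83 at 1 week, 10.76, 10.81 and 10.01 at 4 weeks and 11.43, 11.18 and 11.13 at 6 weeks. All 9 IC arrays were below every CM and RM array, and pig 22 at 4 weeks was the lowest. The log2 FC was -0.95 ± 0.16 (adjusted P = 8.81e-05), -1.21 ± 0.16 (adjusted P = 6.66e-06) and -0.49 ± 0.16 (adjusted P = 0.0201), and between 4 and 6 weeks the level rose by 0.72 ± 0.16 (adjusted P = 0.0185). The call at 6 weeks was lost under cyclic loess (-0.35, adjusted P = 0.055) and without the control of pig 31 or 33 or the IC array of pig 3 or 5 (-0.48 to -0.43, adjusted P = 0.0508 to 0.0756).

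SLC25A5, the form of proliferating cells, was at 4.93, 4.74 and 5.47 in CM, and in IC at 6.83, 6.01 and 6.48 at 1 week, 5.82, 6.26 and 6.44 at 4 weeks and 5.50, 5.16 and 5.89 at 6 weeks. The IC arrays of 1 and 4 weeks were above all CM arrays, and those of 6 weeks overlapped them. Its log2 FC in IC was 1.39 ± 0.24 (adjusted P = 9.93e-05), 1.13 ± 0.24 (adjusted P = 0.000709) and 0.47 ± 0.24 (adjusted P = 0.116). The RM arrays of 1 and 4 weeks (5.54 to 5.95) also lay above all CM arrays. Their log2 FC of 0.80 and 0.62 was not called (adjusted P = 0.123 and 0.208). SLC25A6, the most widely expressed form, was at 9.35, 9.42 and 9.38 in CM and at 9.88, 10.003 and 9.90 in IC at 1 week. It was at 9.93, 9.89 and 10.14 at 4 weeks and at 9.37, 9.85 and 9.68 at 6 weeks, where 1 array lay among the controls. The log2 FC was 0.55 ± 0.18 (adjusted P = 0.0148), 0.60 ± 0.18 (adjusted P = 0.00805) and 0.25 ± 0.18 (adjusted P = 0.265), and its call at 1 week was lost when arrays were centred on their median.

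The phosphate carrier and the carnitine/acylcarnitine carrier were downregulated in IC at the 3 stages. SLC25A3, the phosphate carrier, was at 11.18, 11.37 and 11.10 in CM and at 10.36, 9.88 and 10.32, then 10.51, 10.49 and 10.17, then 10.91, 10.87 and 10.36 in IC. No IC array reached the lowest CM or RM array, and the log2 FC was -1.02, -0.82 and -0.50 (adjusted P = 4.1e-05, 0.000333 and 0.0176). A second probe set of the gene gave -1.15, -0.63 and -0.60, all called. SLC25A20, the carnitine/acylcarnitine carrier, fell by 1.40, 1.16 and 1.01 (adjusted P = 0.00145, 0.00596 and 0.0167). Its values were 7.06, 7.40 and 6.55 in CM and 6.06, 5.11 and 5.62, then 5.81, 6.09 and 5.63, then 6.47, 6.35 and 5.14 in IC, so that 2 of the 3 IC arrays of 6 weeks came close to the lowest control and that of pig 5 was well below it. The calls of both genes at 6 weeks were lost without the control of pig 31 (-0.42 for SLC25A3 and -0.81 for SLC25A20) or the IC array of pig 5 (-0.32 and -0.59).

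Both measured carriers of the malate-aspartate shuttle were downregulated at the 3 stages. SLC25A12, the aspartate/glutamate carrier, was at 8.48, 8.94 and 8.86 in CM and at 7.20, 6.72 and 7.11, then 7.08, 7.22 and 6.37, then 7.57, 7.41 and 7.42 in IC, with log2 FC of -1.75, -1.87 and -1.29 (adjusted P = 1.65e-06, 7.11e-07 and 7.49e-05). SLC25A11, the oxoglutarate/malate carrier, was at 6.68, 6.79 and 6.83 in CM and at 5.32, 5.45 and 5.78, then 5.39, 5.25 and 4.60, then 5.83, 5.69 and 5.32 in IC, with log2 FC of -1.25, -1.69 and -1.15 (adjusted P = 9.63e-05, 3.92e-06 and 0.000348). For both genes the 9 IC arrays lay below all 12 arrays of CM and RM. Pig 22 at 4 weeks, which had the lowest cardiomyocyte marker level, was also the lowest array for SLC25A4, SLC25A11, SLC25A12 and SLC25A30. It was not the lowest for the other SLC25 genes downregulated at every stage. Lowest were the IC arrays of pig 8 at 1 week for SLC25A3 (9.88) and SLC25A20 (5.11). For SLC25A33 it was pig 18 at 4 weeks (3.92) and for SLC25A46 pig 5 at 6 weeks (1.98). A tie to the marker level was not tested.

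SLC25A30 had the lowest fitted log2 FC in SLC25 at 1 and 4 weeks and is a carrier also known as kidney mitochondrial carrier protein. Its values were 7.56, 8.04 and 7.97 in CM, 7.67 to 8.26 in RM, and in IC 5.25, 5.54 and 5.30 at 1 week, 5.45, 5.55 and 5.23 at 4 weeks and 6.50, 6.28 and 5.90 at 6 weeks. The 3 IC arrays of 6 weeks were above the 6 earlier ones and still below every CM and RM array. The log2 FC was -2.50 ± 0.18 (adjusted P = 8.47e-09), -2.45 ± 0.18 (adjusted P = 1.02e-08) and -1.63 ± 0.18 (adjusted P = 1.58e-06). SLC25A33, a pyrimidine nucleotide carrier, was at 6.94, 5.74 and 6.70 in CM and between 3.92 and 5.39 in IC, and its log2 FC was -1.82, -2.18 and -1.58 (adjusted P = 0.00191, 0.000415 and 0.00684). RM arrays of this gene were scattered between 4.88 and 6.64 and overlapped IC. SLC25A46, a protein of the mitochondrial outer membrane that acts in mitochondrial dynamics, was at 3.98, 4.50 and 4.54 in CM and between 1.98 and 2.89 in IC. All of its IC arrays were below 3, the level used in the rule, and the log2 FC was -1.68, -2.04 and -2.27 (adjusted P = 4.36e-05, 5.1e-06 and 3.84e-06).

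In the opposite direction, SLC25A24, the calcium-regulated ATP-Mg/phosphate carrier, was at 4.95, 5.30 and 5.51 in CM and between 4.65 and 5.48 in RM. In IC it was at 7.07, 7.23 and 6.86 at 1 week, 6.43, 6.79 and 6.39 at 4 weeks and 6.25, 5.90 and 6.30 at 6 weeks. Every IC array was above every CM and RM array, with log2 FC of 1.80 ± 0.17, 1.28 ± 0.17 and 0.90 ± 0.17 (adjusted P = 1.5e-07, 5.83e-06 and 0.000372). SLC25A17 is the member of the family that sits in peroxisomes, where it carries coenzymes. It was at 2.97, 4.09 and 4.37 in CM and at 5.66, 5.17 and 5.31, then 5.23, 5.41 and 5.98, then 4.90, 5.03 and 5.09 in IC, with log2 FC of 1.57, 1.73 and 1.19 (adjusted P = 8.36e-05, 2.98e-05 and 0.00147). The IC arrays again lay above all others, and the control of pig 30 was well below the other two controls.

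The remaining 5 SLC25 genes were not called in IC against CM at any stage. They were SLC25A1 (citrate carrier; 0.21, 0.15 and -0.09), SLC25A21 (oxodicarboxylate carrier; 0.50, 0.30 and 0.66), SLC25A37 (mitoferrin, an iron importer; -0.30, -0.10 and 0.02), SLC25A38 (a glycine carrier of haem synthesis; -0.15, 0.00 and -0.15) and SLC25A39 (a glutathione importer; 0.41, -0.30 and -0.35). A second probe set of SLC25A37 gave -0.85 at 1 week (adjusted P = 0.00567), so its 2 probe sets differed in the call. SLC25A21 had the widest spread within IC, from 5.40 in pig 22 at 4 weeks to 7.46 in pig 7 at 1 week.

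**Figure D3:**
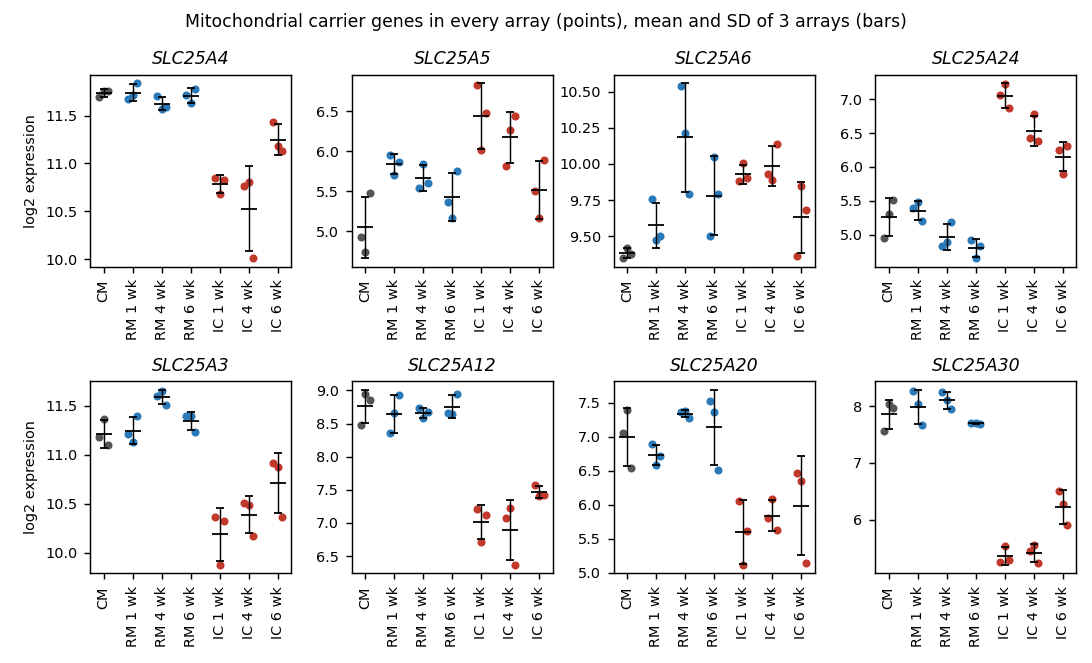
Log2 expression of 8 SLC25 genes in each array (points) by group, with mean and SD of 3 arrays (bars). Axes differ between panels and do not start at 0. SLC25A4, SLC25A3, SLC25A12 and SLC25A30 fall in IC without overlap with CM or RM, SLC25A24 rises, and SLC25A6 is higher in RM at 4 weeks than in CM.

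Genes outside SLC25 that work beside the carriers were mostly lower too. A list of 23 genes held porins, pyruvate carriers, protein import components, fatty acid genes, ion pumps, a hexokinase, lactate dehydrogenases and basigin (BSG), and 16, 19 and 15 of them were downregulated in IC at 1, 4 and 6 weeks and 2, 1 and 1 upregulated. The shares of all probe sets were 28.2%, 29.1% and 26% down and 26%, 25.3% and 21% up. The outer membrane porins VDAC1, VDAC2 and VDAC3 changed by -0.82, -1.29 and -1.18 at 1 week, and the mitochondrial pyruvate carrier subunits MPC1 and MPC2 by -1.31 and -1.24, all called at the 3 stages. CPT1B and CPT1A, the muscle and liver forms of the enzyme that makes the acylcarnitine moved by SLC25A20, went in opposite directions. CPT1B changed by -2.46, -2.31 and -1.71 and CPT1A by 0.99, 2.12 and 1.33, all 6 called. LDHA, a lactate dehydrogenase subunit of glycolysis, was the other gene upregulated at 1 week, by 1.90 (adjusted P = 0.000107), and was not called at 4 and 6 weeks (0.64 and 0.45).

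In the SLC2 family, which moves glucose down its gradient, 3, 4 and 3 of 5 genes were downregulated in IC and 0 upregulated, SLC2A4RG (-0.73, -0.81 and -0.49, all called) included. Of all probe sets 28.2%, 29.1% and 26% were downregulated and 26%, 25.3% and 21% upregulated. SLC2A12, an insulin-responsive carrier of muscle, was at 4.07, 4.69 and 4.44 in CM and in IC at 1.47, 2.06 and 1.86, then 2.41, 2.28 and 2.54, then 2.57, 2.94 and 2.19. No IC array of this gene reached 3, and the log2 FC was -2.60 ± 0.21, -1.99 ± 0.21 and -1.83 ± 0.21 (adjusted P = 3.79e-08, 6e-07 and 3.7e-06). SLC2A4, the insulin-regulated GLUT4, fell by 0.65, 0.58 and 0.25 (adjusted P = 0.00142, 0.00349 and 0.176, the last not called). SLC2A3, the high-affinity GLUT3, fell by 0.70, 1.02 and 1.12 (adjusted P = 0.0549, 0.00789 and 0.00519, the first not called). SLC2A1, the basal GLUT1, was between 2.92 and 4.72 in CM and between 2.86 and 4.68 in IC, and its differences of 0.73, -0.07 and 0.17 were within the spread between arrays and not called. SLC50A1, a sugar carrier of another family, rose by 1.17, 1.00 and 0.75 (adjusted P = 2.96e-05, 0.000142 and 0.00244).

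Of 10 carriers of metals, 4, 3 and 2 were upregulated and 2, 3 and 1 downregulated at 1, 4 and 6 weeks. Over all probe sets the shares were 26%, 25.3% and 21% up and 28.2%, 29.1% and 26% down. SLC41A1, a magnesium carrier of the plasma membrane, and SLC2A12 had the lowest log2 FC of the 70 genes at 1 week (-2.64 and -2.60), closer together than their SE. Values of SLC41A1 were 9.21, 8.82 and 8.64 in CM, 8.39 to 9.21 in RM, and in IC 6.43, 6.06 and 6.27 at 1 week, 6.96, 6.64 and 6.12 at 4 weeks and 7.54, 7.82 and 7.04 at 6 weeks. No IC array overlapped CM or RM, and the log2 FC was -2.64 ± 0.24, -2.31 ± 0.24 and -1.42 ± 0.24 (adjusted P = 1.02e-07, 3.9e-07 and 0.000134). All 4 probe sets of this gene were called lower at the 3 stages. SLC39A7, which releases zinc from the endoplasmic reticulum, went the other way, from 4.55, 4.16 and 4.82 in CM to 6.49, 6.47 and 6.48 at 1 week, 6.20, 6.38 and 6.07 at 4 weeks and 5.89, 5.70 and 6.52 at 6 weeks. Its IC arrays lay above all others, with log2 FC of 1.97 ± 0.19, 1.71 ± 0.19 and 1.52 ± 0.19 (adjusted P = 1.65e-07, 7.2e-07 and 6.32e-06). The zinc importer SLC39A1 rose by 0.61, 0.89 and 0.46, with a second probe set not called at 6 weeks (0.30), and the copper importer SLC31A1 by 1.04, 0.71 and 0.47, the last not called (adjusted P = 0.0807). SLC11A2, the iron importer DMT1, fell by 1.06, 0.83 and 0.51, the last not called (adjusted P = 0.0631).

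Carriers of amino acids and related compounds split by gene. SLC1A5, the glutamine carrier ASCT2, was at 5.11, 4.82 and 4.56 in CM and at 6.55, 6.64 and 6.73, then 6.29, 6.36 and 6.64, then 6.02, 6.49 and 6.29 in IC, above all CM and RM arrays. The log2 FC was 1.81 ± 0.19, 1.60 ± 0.19 and 1.44 ± 0.19 (adjusted P = 4.53e-07, 1.64e-06 and 1.23e-05). SLC38A9, a lysosomal arginine sensor, rose by 0.94, 0.73 and 0.82, and SLC38A10 by 1.39, 0.99 and 1.22, all called, although the authors' own match gives the probe set of SLC38A10 another gene name (SOSTDC1). The glutamate carrier SLC1A2 fell by 1.34, 1.83 and 1.11 (adjusted P = 0.0101, 0.00105 and 0.0322), with CM arrays as far apart as 6.04 and 4.45. SLC6A8, the creatine carrier, fell by 0.91, 0.88 and 0.74 (adjusted P = 0.00166, 0.00202 and 0.00875). SLC3A1, SLC3A2 and SLC7A1 were not called in IC against CM. SLC38A1, a glutamine carrier, was not called either (-0.80, -0.63 and 0.14), but a second probe set of it was called lower at 1 week (-0.94, adjusted P = 0.0174).

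Among the carriers of ions, fatty acids and organic cations, SLC8A1, SLC27A1 and SLC22A3 were downregulated at 1 and 4 weeks, and SLC4A2, SLC12A4, SLC27A6 and SLC22A5 were not called at any stage. SLC8A1, the sodium/calcium exchanger that removes calcium after each beat, was at 4.10, 4.08 and 4.02 in CM and at 2.64, 2.12 and 2.15, then 3.05, 1.89 and 2.67, then 3.33, 2.06 and 2.77 in IC, below every CM and RM array. Its log2 FC was -1.76, -1.53 and -1.35 (adjusted P = 0.00019, 0.000694 and 0.00264). With only 2 IC arrays above 3, SLC8A1 passed the filter through CM and RM. SLC27A1, a fatty acid transport protein, was at 4.58, 4.95 and 4.77 in CM and at 3.42, 3.55 and 3.59, then 3.57, 3.37 and 3.48, then 4.31, 4.28 and 3.93 in IC, with log2 FC of -1.25, -1.29 and -0.59 (adjusted P = 3.89e-06, 2.45e-06 and 0.00534). SLC22A3, an organic cation carrier that takes up monoamines, fell by 2.02, 1.20 and 0.82 (adjusted P = 0.00124, 0.0347 and 0.152), the last not called. SLC45A2, known from melanosomes, fell by 1.13, 0.85 and 0.80, all called, to means below 3 in IC. It was above 3 in 1 IC array, and it too passed the filter through CM and RM.

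The SLC35 family brings nucleotide sugars and sulphate donors into the Golgi. Of its 8 genes, 4 (50%) were upregulated and 1 (12.5%) downregulated at 1 week, beside 26% and 28.2% of all probe sets. At 4 weeks 3 were up and 3 down, beside 25.3% and 29.1%, and at 6 weeks 2 and 1, beside 21% and 26%. SLC35B3, which imports the sulphate donor PAPS, rose by 0.98, 1.00 and 0.93 (adjusted P = 0.00052, 0.000437 and 0.00116). SLC35C2 rose by 1.01, 0.98 and 0.74, but a second probe set of it gave 0.05, 0.08 and -0.03, none called. The acetyl-CoA carrier SLC33A1 rose by 0.99, 0.73 and 0.57 and the choline carrier-like SLC44A2 by 0.81, 0.87 and 0.76, all called. The 2 other probe sets of SLC33A1 were not called at 6 weeks (0.17 and -0.06, adjusted P = 0.536 and 0.85), and 1 of them was not called at 1 week (0.54, adjusted P = 0.0761). SLC9A3R1, a scaffold protein and not a carrier, went from 3.72, 3.54 and 3.43 in CM to 5.80, 5.24 and 5.87 in IC at 1 week, a log2 FC of 2.07 ± 0.29 (adjusted P = 1.01e-05), beside 1.97 ± 0.19 for SLC39A7. SLC9A3R2 fell by 0.54, 0.38 and 0.51 (adjusted P = 0.00894, 0.0518 and 0.0151), the second not called. Without the 3 non-carriers, the other families counted 14 up and 11 down, 13 and 15, and 10 and 9.

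Of the members not yet given, SLC35F5 was downregulated at every stage by 0.52, 0.69 and 0.53 (adjusted P = 0.044, 0.0101 and 0.0477). Against RM of the same pigs it was not called at any stage (-0.24, -0.17 and -0.29). A second probe set was called lower than RM at 6 weeks only (-0.87, adjusted P = 0.0332). SLC35F6 was upregulated by 0.90 and 0.97 at 1 and 4 weeks and not called at 6 weeks (0.27). Called at 1 stage each were the zinc carrier SLC30A5 (0.97 at 1 week) and the second PAPS carrier SLC35B2 (0.32 at 1 week), and at 4 weeks SLC30A3 (-0.48), SLC35A4 (-0.52), SLC35B1 (-0.65) and the riboflavin carrier SLC52A2 (0.41). At 4 weeks the second probe sets of SLC35F5, SLC30A3 and SLC35A4 were not called (-0.39, -0.24 and -0.06). No call in IC against CM was made for SLC4A2, SLC5A4, SLC5A6, SLC12A4, SLC16A13, SLC22A5 (the carnitine importer), SLC27A6, SLC29A1, SLC31A2, SLC35D2, SLC37A1, SLC37A4, SLC39A4, SLC39A5 and SLC46A1 (the proton-coupled folate carrier). The largest differences among these 15 were 0.62 for SLC27A6 at 6 weeks and -0.57 for SLC5A4 at 4 weeks and SLC31A2 at 6 weeks. SLC27A6 was above 3 in 7 IC arrays and in 3 others, so it passed the filter mainly through IC. SLC5A4 had a control as high as 4.96 and another as low as 2.43.

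**Figure D4:**
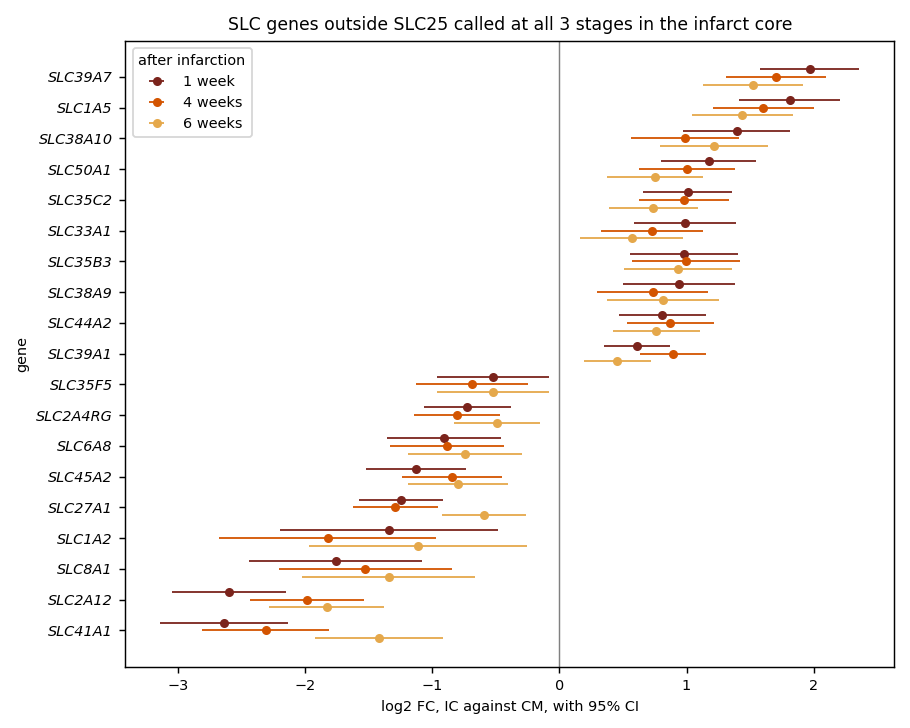
Log2 FC of IC against CM (x axis) with 95% confidence intervals for the 19 SLC genes outside SLC25 that were called in the same direction at 1, 4 and 6 weeks. 10 genes lie above 0 and 9 below, and SLC41A1 and SLC2A12 have the lowest values. SLC2A12, SLC8A1 and SLC45A2 passed the filter through CM and RM.

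Over the 3 stages, 2 SLC25 genes (11.8%) were called up and 8 (47.1%) down at every stage. For the other families the numbers were 10 (18.9%) and 9 (17%), and 16% and 18.6% of all probe sets were called up or down throughout. No call against CM was made in IC for 5 SLC25 genes and 20 of the others. Scaling bore on the split of directions over the 70 genes. It was 19 up and 21 down at 1 week as deposited, 17 and 28 with arrays centred on their median, and 17 and 29 with arrays centred on ribosomal protein genes, the last of which also turned 13 and 19 at 6 weeks into 10 and 24. Within SLC25, 7 to 9 genes were downregulated and 2 to 4 upregulated in IC against CM under these settings and cyclic loess.

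In the remote myocardium few SLC genes differed from CM. At 1 week 1 of 70 was called, downwards (1.13% of all probe sets, 0.624% downwards), at 4 weeks 2, upwards (1.08%, 0.616% upwards), and at 6 weeks 0 (0.197%), while 14, 8 and 10 had an unadjusted P value under 0.05 in limma. SLC2A12 was downregulated at 1 week, at 2.91, 3.53 and 3.53 against 4.07, 4.69 and 4.44 in CM, by 1.07 ± 0.21 (adjusted P = 0.0226). All 9 RM arrays of the gene, from 2.91 to 3.78, were below the 3 controls, although the later stages were not called. Without the controls 8 arrays were above 3, so this gene too passed the filter through the group in which it was high. Its call was lost without the control of pig 31 or 33 or the RM array of pig 7 (-1.05 to -0.87, adjusted P = 0.0553 to 0.122) and when only the groups compared were fitted (adjusted P = 0.104).

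The genes called in RM at 4 weeks were SLC25A6 and SLC29A1. SLC25A6 was at 10.54, 10.22 and 9.79, beside 9.35, 9.42 and 9.38 in CM, a log2 FC of 0.80 ± 0.18 (adjusted P = 0.0333). It was the only SLC25 gene called in RM at any stage. SLC29A1, the equilibrative nucleoside carrier that takes up adenosine, was at 2.66, 3.15 and 3.23 in CM and at 3.98, 3.87 and 4.03 in RM at 4 weeks, a log2 FC of 0.94 ± 0.18 (adjusted P = 0.0192). Outside that group only 7 arrays were above 3, so the gene passed the filter through the group in which it was called. Its RM arrays at 1 week (3.02, 3.40 and 3.27) and 6 weeks (2.82, 3.55 and 3.49) overlapped the controls, and in IC it was between 2.46 and 2.99. The SLC25A6 call was lost without any 1 of 5 arrays, namely the 3 controls and the RM arrays of pigs 18 and 20 (0.62 to 0.82, adjusted P = 0.0881 to 0.137), and the SLC29A1 call without the control of pig 30 or 31 or the RM array of pig 20 or 22 (0.77 to 1.01, adjusted P = 0.0539 to 0.0806). Both were lost when only the groups compared were fitted (adjusted P = 0.0826 and 0.0556). The SLC25A6 call was also lost with arrays centred on their median (0.78, adjusted P = 0.0516).

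Set against the RM sample of the same pig, IC showed 43, 43 and 38 called genes at 1, 4 and 6 weeks, beside 52.6%, 54.7% and 47.7% of all probe sets. SLC25 had 3, 4 and 2 genes up and 8 down at each stage, and the other families 13, 14 and 11 up and 19, 17 and 17 down. Of all probe sets 24.7%, 25.5% and 22.6% were up and 27.9%, 29.3% and 25% down. With arrays centred on ribosomal protein genes, the split over the 70 genes at 4 weeks went from 18 up and 25 down to 12 and 36. The 8 genes lower than CM throughout were also lower than RM throughout, among them SLC25A30 by 2.63 ± 0.16, 2.69 ± 0.16 and 1.47 ± 0.16 (adjusted P = 4.34e-06, 2.61e-06 and 8.84e-05). At 6 weeks the SLC25A4 call (-0.46, adjusted P = 0.0382) was lost without any 1 of the 3 pigs (-0.55 to -0.37) and the SLC25A33 call without pig 5 (-0.77). SLC25A5 was higher in IC by 0.60 at 1 and 0.51 at 4 weeks (adjusted P = 0.00721 and 0.0154), calls that were lost without pig 7 (0.46) and pig 22 (0.35), the second also without the replicate block (adjusted P = 0.076). With arrays centred on ribosomal protein genes the SLC25A5 call at 4 weeks was lost as well (0.30, adjusted P = 0.128). SLC25A6, higher in RM than in CM at 4 weeks, did not differ by a call between IC and RM (0.35, -0.20 and -0.15). SLC25A38 was higher in IC than in RM at 4 weeks by 0.46 ± 0.17 (adjusted P = 0.0428), a call that was lost when arrays were centred on their median (0.41, adjusted P = 0.065) or on ribosomal protein genes (0.25, adjusted P = 0.241), without the replicate block (adjusted P = 0.18) and without pig 20 or 22 (0.44 and 0.28). For SLC38A1 the paired difference was -1.27 at 1 week (adjusted P = 0.00257), -1.23 at 4 weeks (adjusted P = 0.00292) and -0.59 at 6 weeks, where it was not called. A second probe set of SLC38A1 was called lower at the 3 stages, 6 weeks included (-0.88, adjusted P = 0.013). SLC29A1, not called between IC and CM, was lower in IC than in RM by 0.55, 1.08 and 0.71 (adjusted P = 0.0192, 0.0004 and 0.00622). No IC array of SLC29A1 was above 3. It passed the filter through CM and RM, so a lower level in IC came with the way it was chosen. The glutamine carrier SLC1A5 was higher than RM by 1.40, 1.36 and 1.52 and SLC39A7 by 1.33, 1.54 and 1.12, all called.

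**Figure D5:**
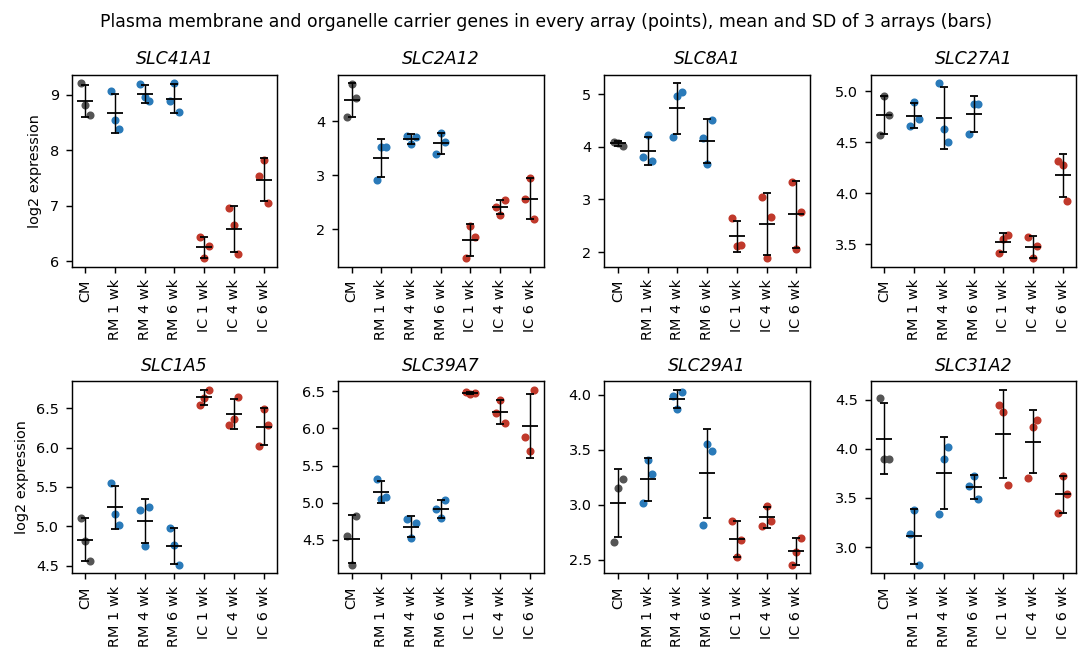
Log2 expression of 8 SLC genes outside SLC25 in each array (points) by group, with mean and SD of 3 arrays (bars). Axes differ between panels and do not start at 0. SLC41A1, SLC2A12, SLC8A1 and SLC27A1 are lower and SLC1A5 and SLC39A7 higher in IC than in CM at every stage, SLC29A1 is highest in RM at 4 weeks, and SLC31A2 is lowest in RM at 1 week.

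Between stages of the infarct core 3 genes were called for 4 against 1 week (11.9% of all probe sets), 12 for 6 against 1 week (15.7%) and 5 for 6 against 4 weeks (3.88%). At 4 weeks SLC9A3R1, SLC30A5 and SLC25A39 were lower than at 1 week, by 1.48, 0.76 and 0.71 (6.35% of all probe sets were lower). The SLC30A5 call was lost without the IC array of pig 8, 9, 18 or 22 (-0.75 to -0.65) and with arrays centred on ribosomal protein genes (adjusted P = 0.0567), and the SLC25A39 call without that of pig 7 or 9 (-0.65 and -0.64). From 4 to 6 weeks SLC41A1, SLC25A30, SLC25A4 and SLC27A1 rose by 0.89, 0.81, 0.72 and 0.70 and SLC35F6 fell by 0.69 (2.09% of all probe sets rose and 1.8% fell). All 4 rises lost their call without the IC array of pig 22 (0.67, 0.72, 0.46 and 0.70) or pig 2 (0.86, 0.68, 0.63 and 0.63). The SLC41A1 call was also lost with the mean of its probe sets (0.66, adjusted P = 0.14) and under cyclic loess (adjusted P = 0.0592). Array weights (adjusted P = 0.0661) and ribosomal centring (adjusted P = 0.0511) lost it too. Against CM at 4 and 6 weeks, its further probe sets gave -2.00 and -2.08, -3.35 and -2.03, and -2.21 and -1.70. Higher at 6 than at 1 week were SLC41A1 by 1.22 ± 0.24, SLC25A30 by 0.87 ± 0.18, SLC2A12 by 0.77 ± 0.21, SLC27A1 by 0.65 ± 0.16 and SLC25A3 by 0.53 ± 0.16 (adjusted P = 0.00327, 0.00398, 0.0228, 0.0106 and 0.0345), in a comparison where 6.64% of all probe sets were higher and 9.1% lower. All 5 were downregulated against CM at 1 week and remained so at 6 weeks. Lower at 6 than at 1 week were SLC9A3R1 by 1.31, SLC25A5 by 0.92, SLC25A24 by 0.90, SLC25A39 by 0.76, SLC30A5 by 0.70, SLC35F6 by 0.62 and SLC35B2 by 0.41 (adjusted P from 0.00261 to 0.0348), and of these all but SLC25A39 had been upregulated against CM at 1 week. The SLC25A5 call was lost without the IC array of pig 3, 7 or 9 (-0.90 to -0.73), and the SLC2A12 call without that of pig 2, 3, 7 or 9 (0.58 to 0.80). These comparisons share the IC arrays with those against CM, so the 2 sets of values are not independent. The cardiomyocyte marker level in IC was 10.93 to 11.30 at 1 week and 11.14 to 11.54 at 6 weeks, and the macrophage level 7.58 to 7.98 and 6.26 to 7.04.

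A test of whether the difference of IC and RM itself changed with the stage called 1 of 70 genes for 6 against 1 week, downwards (0.32% of all probe sets, 0.107% downwards), and 0 for the other pairs of stages (0.0657% for 4 against 1 week and 0% for 6 against 4 weeks), where 9 and 9 genes had an unadjusted P value under 0.05 in limma. The gene was SLC31A2, a copper carrier of late endosomes and lysosomes. At 1 week it was at 4.44, 4.38 and 3.64 in IC and at 3.13, 3.38 and 2.82 in RM, and at 6 weeks at 3.35, 3.73 and 3.54 in IC and at 3.62, 3.73 and 3.49 in RM. IC was above RM in each pig at 1 week, and at 6 weeks the values overlapped. CM was at 4.52, 3.90 and 3.89, above the RM arrays of 1 week and overlapping the IC arrays of 1 week. Against CM at 1 week the log2 FC was 0.047 in IC (adjusted P = 0.885) and -0.997 in RM (adjusted P = 0.0548). At 6 weeks it was -0.57 in IC and -0.49 in RM, and none of these values was called. The difference of IC and RM changed by -1.12 ± 0.19 (adjusted P = 0.0487), and the call was lost without any 1 of the 6 pigs compared.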

How the data were processed

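Total RNA of 21 myocardial samples was labelled and hybridized to Affymetrix porcine arrays, 1 per sample. The authors deposited log2 expression values made by RMA, with background correction, quantile normalization and 1 summary value per probe set. The table held 24123 probe sets with values from -0.06 to 13.40, taken as deposited. Arrays hold no counts, so their number limits the precision. The tests covered 12180 probe sets, those exceeding 3 in 10 or more arrays, a filter that the study's methods state. Of these 6257 had 1 gene symbol in the platform annotation, 133 several and 5790 none, and 4 further SLC probe sets with more than 1 gene entry were left out. SLC39A11 is not analysed here, since no probe set carried that symbol. In 13 members several probe sets passed.

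Group means of 7 groups were fitted in limma 3.58.1 under R 4.3.3 (14 residual degrees of freedom, 3.98 prior). IC was compared with RM in a second limma fit of 18 arrays, in which each pig was a fixed block (6 residual degrees of freedom, 4.29 prior), and changes of that difference between stages were interaction contrasts. Benjamini-Hochberg adjustment ran over all probe sets tested, separately for each comparison. The labels give both arrays of a pig the same number, and their residuals correlated at 0.0714 to 0.491 in 9 pigs, above 0.1 in 8. Each pig gave 1 array per region. An exact permutation test of 3 arrays against 3 cannot go below P = 0.1, and none was used. The code was tested on simulated data.

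Genes named are all SLC25 members, members called in RM, the 6 that rose most and the 6 that fell most in each comparison of IC with CM and with RM, the 4 with the largest change each way between IC stages, SLC29A1 and SLC39A11 (named in the study), and up to 4 genes of other lists; others were chosen after their values were seen, as members of a functional group. The members and lists were chosen with earlier results of these data known. Alternatives were other filters, scalings, probe set choices, spread models, thresholds, blocks and left-out arrays. Gene symbols are the platform's. Sequences and genome positions are not used here.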

Additional observations from a re-analysis of the deposited data

Results flagged for a closer look

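SLC31A2, a copper carrier, was called for a change between stages of the difference of IC and RM, by a test of that change, and no other of the 70 genes was called in that fit. The change from 1 to 6 weeks was -1.12 on the log2 scale (adjusted P = 0.0487 in limma), from IC above RM in each of 3 pigs at 1 week to overlapping values at 6 weeks. The differences at the stages were 1.04, 0.32 and -0.08. At 1 week the RM arrays lay below every CM array (log2 FC -0.997, adjusted P = 0.0548, not called). The IC arrays of 1 week overlapped CM (0.047, adjusted P = 0.885). The call was lost without any 1 of the 6 pigs (-1.23 to -0.98, adjusted P = 0.0707 to 0.163), without the replicate block (adjusted P = 0.211), with arrays centred on their median (adjusted P = 0.0501) or on ribosomal protein genes (adjusted P = 0.0802) and in the trended robust fit (adjusted P = 0.0526). With array weights 7 genes were called for 6 minus 1 week and 1 for 4 minus 1 week.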

How the results depend on the processing

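No called value reversed. Of 128 values of named genes, 127 kept their call without the filter, 124 with arrays centred on their median, 122 with arrays centred on ribosomal protein genes, 125 under cyclic loess and 126 with array weights. At an adjusted P under 0.01, 21 of 128 calls were lost. Over all omissions of 1 array or pig, 62 of 606 recomputed calls were lost. Fitting only the groups compared lost 5 of 57 and dropping the replicate block 3 of 55. Ribosomal centring and the omission of the 3 non-carriers were chosen after seeing the data. Centring on the median moved the median log2 FC of all probe sets by -0.11 in IC at 1 week, and ribosomal centring by -0.19, -0.18 and -0.16 at the 3 stages. Below, medians are log2 FC at 1, 4 and 6 weeks where a series is given.

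With the filter above 5 in at least 3 arrays, which kept 14 of 17 SLC25 genes and 27 of 53 others, the medians of the other families against CM turned positive in IC (0.61, 0.15 and 0.17) and those of SLC25 were -0.56 at 4 and -0.42 at 6 weeks. SLC9A3R1, SLC30A5, SLC35B3, SLC35F6, SLC38A9 and SLC50A1 met this filter through IC arrays alone, so their higher level there came with the choice of genes. In RM the medians were 0.092 (others, 1 week) and 0.10 (SLC25, 4 weeks). For IC against RM they were -0.017 and 0.41 (others, 1 and 4 weeks), and -0.65 and -0.37 (SLC25, 4 and 6 weeks), and 18 other genes were called at 6 weeks. RM calls were then 0 at 1 week and 1 at 4 weeks, and the stage change 0. Median centring gave other medians of -0.25 and -0.17 (IC against CM, 1 and 4 weeks) and -0.34, -0.26 and -0.35 (IC against RM), an SLC25 median of -0.38 (IC against RM, 6 weeks), 1 RM call at 4 weeks and 0 stage changes. Ribosomal centring gave SLC25 medians of -0.49 and -0.51 (IC against CM, 1 and 6 weeks) and -0.41 and -0.37 (IC against RM, 4 and 6 weeks). The other medians were -0.33, -0.28 and -0.22 against CM and -0.41, -0.41 and -0.35 against RM, and stage changes were 0. Cyclic loess gave -0.19 (others, IC against RM, 1 week), and the mean of a gene's probe sets -0.57 (SLC25, IC against CM, 1 week).

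Array weights raised the RM calls to 5, 8 and 2, those between IC at 4 and 1 week to 9, and the stage changes to 1 (4 minus 1 week) and 7 (6 minus 1 week). At an adjusted P under 0.01 the RM calls were 0 and 0, those between IC stages 1 (4 against 1 week), 6 (6 against 1) and 0 (6 against 4), and the stage changes 0. Fitting only the groups compared gave 0 RM calls at 1 and 0 at 4 weeks, and the trended robust fit 0 stage changes. Treating pigs as a random replicate block gave 2 RM calls at 1 week, and without the replicate block the stage changes were 0. The block moved no other count by over 1.5 times.

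Leaving out 1 array or pig at a time gave 38 to 43, 37 to 44 and 25 to 34 SLC calls in IC against CM. For IC against RM at 6 weeks it gave 25 to 34, with 17 to 25 outside SLC25, the lowest without pig 5. RM calls were 0 to 2 at 1 week (2 without the RM array of pig 8) and 0 to 1 at 4 weeks. Between IC stages they were 1 to 6 for 4 against 1 week (1 without the IC array of pig 9, 6 without that of pig 20) and 1 to 6 for 6 against 4 weeks (1 without that of pig 22, 3 or 2, and 3 without that of pig 20). Stage changes were 0 to 1 for 4 minus 1 week (1 without pig 22) and 0 to 0 for 6 minus 1 week. SLC25 medians ranged from -0.39 to -0.30 (IC against CM, 6 weeks), -0.47 to -0.21 and -0.45 to -0.17 (IC against RM, 4 and 6 weeks), and -0.016 to 0.15 and -0.13 to 0.025 (RM, 1 and 6 weeks). Other medians ranged from -0.13 to -0.088, -0.096 to -0.047 and -0.17 to -0.011 (IC against CM) and -0.29 to -0.12, -0.24 to -0.12 and -0.26 to -0.14 (IC against RM). The cause of each lost call was not tested.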
